A study of Mus musculus with 8 samples.

Results

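Coagulation and plasminogen activation are carried out by linked sets of proteases, cofactors, receptors and inhibitors, and 9 of their genes were followed here in cultured mouse microglia: F3, F7, F10, F13a1, Thbd, Plau, Plaur, Serpinb2 and Thbs1. They were chosen by name and looked up by gene symbol among the 52636 Ensembl gene identifiers of the deposited table. All 9 were found, and 8 of them were among the 13847 genes with enough counts to be tested. F7 was not.

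Microglia are the resident macrophages of the brain, and lipopolysaccharide (LPS), a component of the outer membrane of Gram-negative bacteria, drives them into a reactive state. The series was made to examine the effect of LPS on these cells. The cells came from C57BL/6 mice of WT genotype and were kept in DMEM that held CSF-1, a growth factor microglia need, at 10 ng/ml and FBS at 10%. One group received 5 µg/ml LPS and the other vehicle, both for 24 h, with 4 libraries per group (n = 4 throughout). They had been grown together with other glia of newborn brain and separated by shaking, so they are cultured cells. The labels call the libraries biological replicates without saying whether each came from its own culture, and p-values then measure the spread between these libraries.

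The vehicle libraries of replicates 1 to 4 held 22796052, 22595657, 26129375 and 21370879 counts, and the LPS libraries 20071921, 22529706, 30604447 and 22581615. Levels are given as CPM, a count relative to the size of its library after TMM scaling, which corrects for differences in RNA composition. At these depths 3 counts, taken here as the floor of detection, correspond to 0.0952 to 0.107 CPM in vehicle libraries and 0.140 to 0.180 CPM in LPS libraries. Floors cover counting error only. The label was checked against 10 microglial markers, all of which passed the filter on low counts. Their summed level was 9334, 9360, 10345 and 9102 CPM in vehicle libraries and 3023, 2582, 2719 and 2608 CPM after LPS, and 7 of the 10 were lower and 1 higher after LPS. Csf1r, the most abundant over all libraries together, stood at 3585, 3024, 3383 and 2733 CPM in vehicle and at 728, 278, 427 and 272 CPM after LPS. Itgam, the higher marker, named after its values were seen, had 330, 206, 272 and 201 CPM in vehicle and 970, 958, 1062 and 871 CPM after LPS, though exons of Gm49368 on the same strand overlap 68.7% of its exonic bases and its count is uncertain. For Csf1r 15.1% of the exonic bases are overlapped by a gene of the opposite strand. In such bulk samples, fewer cells of a type and less RNA per cell cannot be told apart. Of 10 oligodendrocyte lineage markers 8 were tested, 1 was higher and 4 were lower after LPS, with a summed level of 198, 204, 105 and 195 CPM in vehicle and 153, 77.6, 83.7 and 72.4 CPM after LPS. Mbp was the most abundant of them over all libraries together, at 84.0 ± 15.7 CPM in vehicle and 15.3 ± 3.54 CPM after LPS, while Vcan, named after its values were seen, went from 16.6 ± 7.58 to 61.2 ± 30.3 CPM.

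Clotting starts when tissue factor, a membrane protein, meets factor VII and the pair activates factor X, which leads to thrombin, fibrin and a crosslinked clot. Thrombomodulin turns thrombin towards the activation of protein C, which stops the cascade. Fibrin is removed by plasmin, which urokinase and tissue-type plasminogen activator release from plasminogen at cell surfaces, under the control of serpin inhibitors. In the brain, astrocytes are a known source of tissue factor and microglia are a known source of urokinase, and the same proteases act on matrix and on receptors of glia and neurons.

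Of the 8 tested genes, 4 were higher after LPS (F3, Plaur, Serpinb2 and Thbs1), 3 were lower (F13a1, Thbd and Plau) and F10 was not called. LPS changed most genes of these cells: 64.1% of all tested genes were called, 30.3% as higher and 33.8% as lower. The groups did not overlap for 7 of the 8 genes, against 60.2% of all tested genes. The median log2 fold change of the 8 was 2.12, beside −0.11 for all tested genes. Since the genes were picked with their direction known, these counts are a description.

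**Figure D1:**
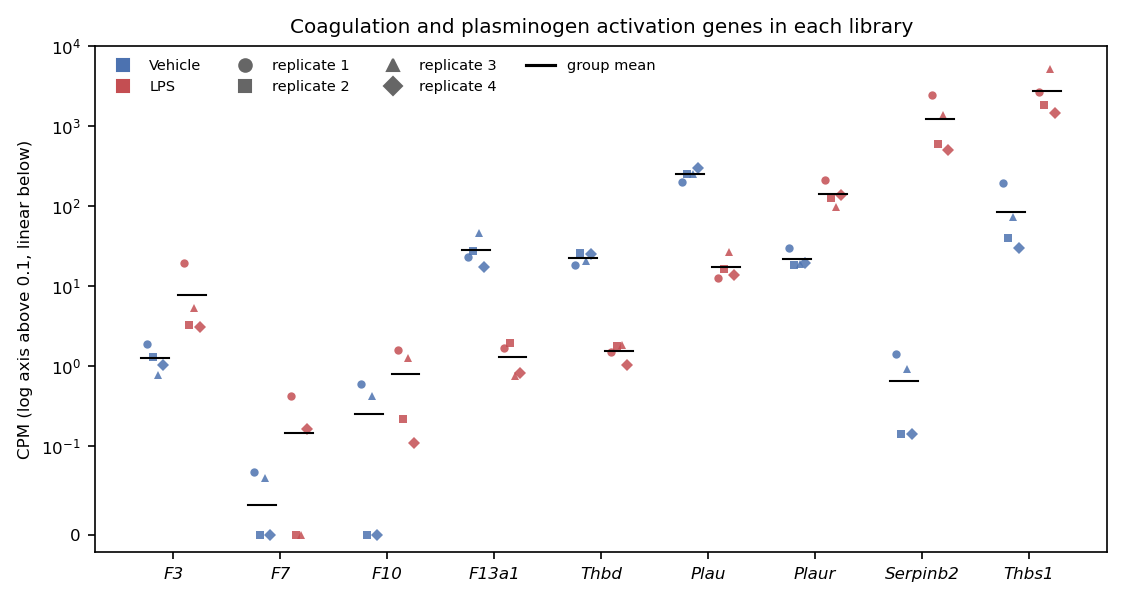
Level of each gene in each library. The vertical axis is CPM, logarithmic above 0.1 and linear below. Colours are the groups, symbols the replicate numbers and lines the group means. Vehicle points of Serpinb2 lie between 0.138 and 1.40 CPM and LPS points between 500 and 2434 CPM, while Plau lies between 195 and 295 CPM in vehicle and between 12.4 and 26.5 CPM after LPS.

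F3 (ENSMUSG00000028128, chr3:121723537-121735048 of GRCm38, plus strand) encodes tissue factor, the initiator of clotting. It stood at 1.86, 1.28, 0.761 and 1.03 CPM in vehicle replicates 1 to 4 and at 18.9, 3.27, 5.27 and 3.08 CPM in LPS replicates 1 to 4. Every LPS library lay above every vehicle library, and LPS replicate 1 stood far above the other LPS libraries. The mean went from 1.23 ± 0.467 to 7.63 ± 7.58 CPM (SD), a log2 fold change of 2.62 with a standard error of 0.62 and an adjusted p of 0.00425 (edgeR quasi-likelihood test with Benjamini-Hochberg adjustment). Without LPS replicate 1 the log2 fold change of F3 was 1.66, with an edgeR quasi-likelihood Benjamini-Hochberg adjusted p of 0.00326, and over all edgeR alternatives this p ranged from 0.000888 to 0.0177. The Wald test of DESeq2 gave a Benjamini-Hochberg adjusted p of 7.12e-06 for F3. Of 10 astrocyte markers 9 were tested, 1 was higher and 3 were lower after LPS, and none was at the floor. Their summed level was 40.6, 52.5, 21.1 and 47.9 CPM in vehicle and 125, 42.5, 45.7 and 50.4 CPM after LPS. Gja1, the most abundant over all libraries together and in each LPS library, had 1.05, 1.07, 0.729 and 0.639 CPM in vehicle and 98.1, 28.9, 35.3 and 31.9 CPM after LPS. Without Gja1 the sum was 39.5, 51.4, 20.4 and 47.2 CPM in vehicle and 26.9, 13.6, 10.4 and 18.5 CPM after LPS. The 3 lower markers, named after their values were seen, were Aldh1l1 (11.6 ± 0.485 to 3.83 ± 1.14 CPM, with 11.05% of its exonic bases overlapped by a gene of the opposite strand and 2.33% on the same strand), Gfap (5.96 ± 3.33 to 1.14 ± 1.08 CPM) and Aqp4 (1.83 ± 0.914 to 0.181 ± 0.186 CPM). The part of these markers in the F3 result was not tested.

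F7 and F10 encode the zymogens of the proteases that follow tissue factor, and they lie next to each other on the plus strand of chromosome 8 (F7, ENSMUSG00000031443, chr8:13026034-13035809; F10, ENSMUSG00000031444, chr8:13037308-13056676). F7 had 2, 0, 2 and 0 counts in vehicle libraries and 7, 0, 0 and 3 counts after LPS. It was close to absent at this depth and no fold change is given. F10 had 17, 0, 13 and 0 counts in vehicle and 26, 4, 27 and 2 counts after LPS, which is 0.595, 0, 0.412 and 0 CPM against 1.56, 0.218, 1.26 and 0.108 CPM. Replicates 1 and 3 exceeded replicates 2 and 4 in both groups, and the groups overlapped. The mean of F10 was 0.252 ± 0.3002 CPM in vehicle and 0.785 ± 0.730 CPM after LPS, and its difference of 1.61 on the log2 scale (standard error 1.08) was not called (edgeR quasi-likelihood test, Benjamini-Hochberg adjusted p = 0.216). With the replicate number as a block the log2 fold change of F10 was 1.83 (standard error 0.58) and it was called (edgeR quasi-likelihood test, Benjamini-Hochberg adjusted p = 0.0238, against 0.133 to 0.446 in the other alternatives). Leaving out vehicle replicate 1 gave a log2 fold change of 2.43, without a call. Both genes are best known from the liver. Of 10 hepatocyte markers none was tested and 7 were at the floor in every library (Alb, Apoa1, Serpina1a, Ahsg, Tat, Hnf4a and Apob). The summed level of the list was 0.0700, 1.18, 34.8 and 0.284 CPM in vehicle and 0, 0.109, 0.233 and 0.0541 CPM after LPS, where the 34.8 CPM of vehicle replicate 3 was Ttr alone.

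F13a1 (ENSMUSG00000039109, chr13:36867178-37050244, minus strand) encodes the A subunit of factor XIII, the transglutaminase that crosslinks fibrin and that macrophages make. It stood at 23.0, 27.4, 45.5 and 16.9 CPM in vehicle and at 1.68, 1.91, 0.746 and 0.811 CPM after LPS. Each LPS library was far below each vehicle library, and vehicle replicate 3 was the highest. The mean fell from 28.2 ± 12.3 to 1.28 ± 0.592 CPM, 22.1-fold lower (log2 fold change −4.47, standard error 0.41; edgeR quasi-likelihood test, Benjamini-Hochberg adjusted p = 1.15e-05). Macrophages of the brain's borders are known for high F13a1. Of 10 of their markers 8 were tested, 2 were higher and 3 were lower after LPS, and Lyve1 was at the floor in every library. Their summed level was 3597, 4166, 5375 and 3523 CPM in vehicle, highest in replicate 3 as for F13a1, and 4718, 4008, 3076 and 3947 CPM after LPS. Siglec1, the most abundant over all libraries together, went from 425, 683, 868 and 428 CPM to 3297, 2592, 1683 and 2638 CPM. Without Siglec1 the sum was 3172, 3483, 4507 and 3096 CPM in vehicle and 1421, 1416, 1394 and 1309 CPM after LPS. The markers that follow were named after their values were seen. Stab1 was lower, from 2239 ± 288 to 475 ± 169 CPM (log2 fold change −2.24), and Mrc1 from 650 ± 197 to 38.9 ± 6.63 CPM (−4.07). Pf4 was also lower, from 38.9 ± 18.3 to 14.1 ± 9.12 CPM (−1.47). Besides Siglec1, Cbr2 was higher, from 1.30 ± 1.19 to 6.10 ± 2.54 CPM (2.22). Ms4a7 was not called, at 476 ± 139 CPM in vehicle and 719 ± 187 CPM after LPS. The part of these markers in the F13a1 result was not tested.

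Thbd (ENSMUSG00000074743, chr2:148404466-148408188, minus strand) encodes thrombomodulin, the thrombin receptor that switches thrombin from clotting to the activation of protein C. Its level was 18.2, 25.5, 20.3 and 24.7 CPM in vehicle and 1.496, 1.74, 1.82 and 1.03 CPM after LPS. The libraries of each group lay close together and the groups were far apart. From 22.2 ± 3.50 CPM the mean fell to 1.52 ± 0.357 CPM, 14.5-fold lower (log2 fold change −3.86, standard error 0.21; edgeR quasi-likelihood test, Benjamini-Hochberg adjusted p = 5.54e-07).

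Plau (ENSMUSG00000021822, chr14:20836660-20843385, plus strand) encodes urokinase, the plasminogen activator that works at cell surfaces. It stood at 195, 245, 246 and 295 CPM in vehicle and at 12.4, 16.0, 26.5 and 13.7 CPM after LPS. Every vehicle library was several times above the highest LPS library, replicate 3. The mean fell from 245 ± 41.0 to 17.1 ± 6.41 CPM, 14.3-fold lower (log2 fold change −3.84, standard error 0.26; edgeR quasi-likelihood test, Benjamini-Hochberg adjusted p = 1.91e-06).

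Plaur (ENSMUSG00000046223, chr7:24462484-24475968, plus strand) encodes the receptor that holds urokinase on the cell surface, and it moved the other way. Its level was 29.5, 18.1, 18.9 and 19.4 CPM in vehicle and 206, 124, 97.0 and 136 CPM after LPS. Replicate 1 was the highest of its group in both treatments, and the groups did not overlap. The mean rose from 21.5 ± 5.39 to 141 ± 46.5 CPM, 6.56-fold (log2 fold change 2.71, standard error 0.25; edgeR quasi-likelihood test, Benjamini-Hochberg adjusted p = 1.40e-05).

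Serpinb2 (ENSMUSG00000062345, chr1:107511423-107535478, plus strand) encodes a serpin that inhibits urokinase and that activated macrophages are known to make. In vehicle libraries it had 40, 4, 29 and 4 counts, or 1.40, 0.138, 0.920 and 0.142 CPM. After LPS it had 40664, 10830, 29288 and 9238 counts, or 2434, 590, 1366 and 500 CPM. It was near the floor in vehicle replicates 2 and 4 and abundant in every LPS library, and replicates 1 and 3 were above replicates 2 and 4 in both groups. The mean rose from 0.650 ± 0.621 to 1222 ± 896 CPM, 1855-fold (log2 fold change 10.86, standard error 0.92; edgeR quasi-likelihood test, Benjamini-Hochberg adjusted p = 7.72e-06). Sorted by log2 fold change, Serpinb2 was at rank 15 of the 13847 tested genes. Its vehicle level rests on few counts: without vehicle replicate 1 the rise of Serpinb2 was 2998-fold. Between same-numbered libraries the ratio of levels was 1738, 4262, 1485 and 3519. Exons of Serpinb10 on the same strand overlap 12.4% of the exonic bases of Serpinb2, but Serpinb10 itself had 0, 0, 0 and 0 counts in vehicle and 3, 0, 8 and 0 after LPS. Monocytes and neutrophils can also carry Serpinb2. Of 10 of their markers 2 were tested and 1 was higher after LPS, and 6 were at the floor in every library (Chil3, S100a9, Ly6g, Ngp, Elane and Mpo). Their sum rose from 3.71, 2.21, 3.55 and 2.09 CPM to 1180, 654, 717 and 576 CPM, nearly all of it S100a8 at 1173, 650, 712 and 572 CPM after LPS, and its part in the Serpinb2 result was not tested.

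Thbs1 (ENSMUSG00000040152, chr2:118111876-118127133, plus strand) encodes thrombospondin 1, a matrix protein of platelet granules and of many activated cells that binds CD36 and CD47. It stood at 189, 38.9, 71.1 and 29.2 CPM in vehicle and at 2588, 1803, 5065 and 1430 CPM after LPS. All LPS libraries were above all vehicle libraries, but the vehicle libraries differed widely among themselves, with replicate 1 the highest. The mean rose from 82.1 ± 73.6 to 2722 ± 1635 CPM, 33.1-fold (log2 fold change 5.05, standard error 0.71; edgeR quasi-likelihood test, Benjamini-Hochberg adjusted p = 0.000174). Without vehicle replicate 1 the rise of Thbs1 was 58.9-fold. Gm29233, a gene of the opposite strand, covers 3.42% of the exonic bases of Thbs1, and reads there are uncertain if counting did not use strand. Of 10 megakaryocyte and platelet markers 3 were tested, 1 was higher and 2 were lower after LPS, and Itga2b, Gp9 and Gp5 were at the floor in every library. Their summed level was 9.10, 10.2, 9.58 and 14.9 CPM in vehicle and 44.0, 4.41, 6.53 and 4.54 CPM after LPS, of which Gp6, the most abundant over all libraries together, made up 42.5 CPM in LPS replicate 1. Without Gp6 the sum was 9.07, 10.2, 9.55 and 14.9 CPM in vehicle and 1.56, 1.09, 0.793 and 0.920 CPM after LPS. Of 10 fibroblast and mural cell markers 4 were tested and 1 was higher, with Rgs5 and Des at the floor in every library. Their summed level was 10.4, 20.8, 5.77 and 18.7 CPM in vehicle and 13.8, 11.9, 25.1 and 10.5 CPM after LPS, with Pdgfra the most abundant over all libraries together. Pdgfra had 2.84, 16.7, 0.381 and 14.9 CPM in vehicle and 2.33, 2.56, 0.140 and 2.92 CPM after LPS. It was not called, but was called lower with the replicate block. Dcn, named after its values were seen, had 0.245, 0.104, 0.159 and 0.0355 CPM in vehicle and 4.73, 6.75, 19.4 and 4.71 CPM after LPS. Other markers, also named after their values were seen, went both ways without a call. The means of Pdgfrb, Col1a1, Col1a2 and Col3a1 were lower after LPS, and those of Lum and Acta2 were higher. LPS replicate 3 was the highest for the summed level of the fibroblast and mural list and for Thbs1. The part of either list in the Thbs1 result was not tested.

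To compare levels between genes, CPM was divided by the exonic length in kb. In vehicle libraries Plau was the most abundant of the 9, at 104 ± 17.3 CPM per kb (SD), with every library above those of the other genes. Thbs1 (13.5 ± 12.1 CPM per kb) overlapped Plaur (8.20 ± 2.06) across libraries, and Thbd (5.96 ± 0.940) overlapped F13a1 (4.18 ± 1.82). F3 (0.487 ± 0.185), Serpinb2 (0.277 ± 0.264), F10 (0.0922 ± 0.110) and F7 (0.0179 ± 0.0208) followed, each overlapping the next. After LPS the order changed. Serpinb2 (520 ± 382 CPM per kb) and Thbs1 (448 ± 269) came first and did not differ beyond their spread. Plaur (53.8 ± 17.8) stood below both and above Plau (7.24 ± 2.71), with no overlap on either side. F3 (3.02 ± 3.00) overlapped Plau, and Thbd (0.409 ± 0.0958), F10 (0.288 ± 0.267), F13a1 (0.191 ± 0.0879) and F7 (0.0782 ± 0.106) formed the low end, each overlapping the next.

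Ratios within a library depend on how libraries are scaled only through a small level added to both genes. Those of activator to inhibitor, of starter to inhibitor and of receptor to ligand are given on the log2 scale with 0.5 CPM added to each level. The ratio of Plau to Serpinb2 was 6.68, 8.59, 7.44 and 8.85 in vehicle and −7.56, −5.16, −5.66 and −5.14 after LPS. With 0.1 CPM added instead, its mean went from 8.80 ± 1.58 (SD) to −5.92 ± 1.15, and the larger change was in vehicle libraries, where Serpinb2 is near the floor. RNA of the activator was thus in excess in every vehicle library and RNA of the inhibitor in every LPS library. The ratio of Plaur to Plau was −3.50 ± 0.54 (SD) in vehicle and 3.01 ± 0.89 after LPS, so that receptor RNA exceeded ligand RNA only in the LPS libraries. The ratio of Thbd to F3 went from 3.74 ± 0.50 to −1.64 ± 1.12. The ratio of F3 to Tfpi, the inhibitor of the tissue factor pathway, was −4.20 ± 0.36 in vehicle and −0.94 ± 0.67 after LPS, and in LPS replicate 1 alone it was above 0, at 0.054. Ratios were not divided by exonic length, which is 2.53 kb for F3 and 5.46 kb for Tfpi. Per kb, F3 (3.02 ± 3.00 CPM) and Tfpi (2.20 ± 0.823 CPM) overlapped after LPS. For each of these ratios the groups did not overlap.

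A list of 51 other genes of coagulation, fibrinolysis and their receptors was examined in the same fit. Of these, 25 were tested, 9 were higher, 9 were lower and 7 were not called, and 16 were at the floor in every library. The median log2 fold change of the 25 was −0.33, beside −0.11 for all tested genes, and the groups did not overlap for 17 of them. These shares are near those of all tested genes, of which 64.1% were called and 60.2% did not overlap. The genes named were called and had a mean log2 CPM that reached 1, or are partners of the members, and any other is named because of its values.

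**Figure D2:**
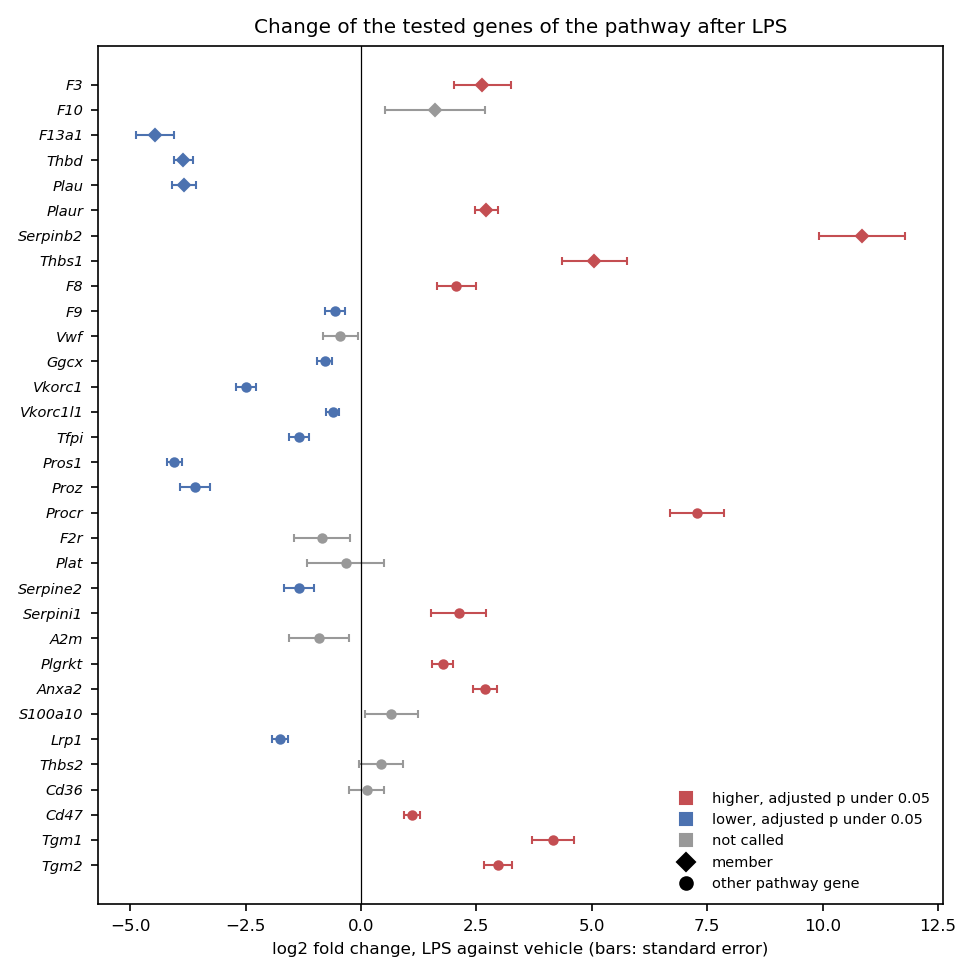
Log2 fold change of LPS against vehicle for the 8 tested genes (diamonds) and 24 of the 25 tested genes of the longer list (circles), with standard errors as bars. Red and blue mark genes called higher and lower and grey those not called. Serpinb2 at 10.86 and Procr at 7.29 lie farthest to the right, and F13a1 at −4.47 and Pros1 at −4.05 farthest to the left.

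Most clotting factors were close to undetected. Of 13 on the list, 8 were at the floor in every library and 3 were tested. F9, which encodes the zymogen factor IX, had 4.24, 5.02, 5.58 and 4.33 CPM in vehicle and 2.81, 2.72, 4.43 and 2.92 CPM after LPS. The groups of F9 overlapped, and its log2 fold change of −0.57 (standard error 0.22; edgeR quasi-likelihood test, Benjamini-Hochberg adjusted p = 0.0410) was no longer called in 7 of the 8 fits that left out a library, with an edgeR adjusted p of 0.000219 to 0.119 over all alternatives. F8, named after its values were seen, rose from 0.336 ± 0.129 to 1.41 ± 0.648 CPM. All 3 genes of the vitamin K cycle, which gives factors II, VII, IX and X and protein S their calcium-binding residues, were lower. Vkorc1 fell from 12.5 ± 0.573 to 2.20 ± 0.674 CPM (log2 fold change −2.49), though exons of Gm21974 on the same strand overlap 47.7% of its exonic bases and its count is uncertain. Ggcx (log2 fold change −0.79) and Vkorc1l1 (−0.62) fell less.

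The anticoagulant genes split. Of 10, 4 were tested, 3 of them lower and 1 higher. Pros1, which encodes protein S, the cofactor of activated protein C, had 132, 130, 162 and 130 CPM in vehicle and 10.1, 6.70, 9.56 and 7.19 CPM after LPS. It was the most abundant anticoagulant gene in vehicle, and its groups were far apart (log2 fold change −4.05, standard error 0.17; edgeR quasi-likelihood test, Benjamini-Hochberg adjusted p = 1.47e-07). Tfpi had 32.0, 28.9, 30.7 and 30.5 CPM in vehicle and 18.2, 9.15, 12.5 and 8.28 CPM after LPS. The log2 fold change of Tfpi was −1.34 (standard error 0.22; edgeR quasi-likelihood test, Benjamini-Hochberg adjusted p = 0.000542). Proz, a cofactor in the inhibition of factor X named after its values were seen, fell from 2.82 ± 0.566 to 0.230 ± 0.0660 CPM. Procr, the endothelial receptor that presents protein C to thrombomodulin, moved opposite to Thbd. It had 8.75, 2.32, 3.84 and 1.81 CPM in vehicle and 687, 459, 1001 and 472 CPM after LPS, 156-fold higher (log2 fold change 7.29, standard error 0.58; edgeR quasi-likelihood test, Benjamini-Hochberg adjusted p = 5.41e-06). Without vehicle replicate 1 the rise of Procr was 248-fold. Proc, which encodes protein C itself, had 0 counts in every library. Of 10 endothelial markers 4 were tested and 3 were higher after LPS, and Cldn5, Tek, Emcn, Esam and Tie1 were at the floor in every library. Their summed level rose from 37.3, 84.2, 55.6 and 82.9 CPM to 249, 272, 196 and 268 CPM. Flt1, the most abundant, had 25.0, 65.7, 31.9 and 71.8 CPM in vehicle and 197, 187, 86.3 and 191 CPM after LPS, so that the other markers together exceeded it in LPS replicate 3. The part of these markers in the Procr result was not tested.

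Genes around plasminogen moved in different directions. Serpine2, a serpin that inhibits thrombin and urokinase, fell from 46.1 ± 16.4 to 18.2 ± 7.02 CPM. Serpini1, a neuronal serpin named after its values were seen, rose from 0.547 ± 0.271 to 2.38 ± 1.80 CPM, with a log2 fold change of 2.11, or 1.51 without LPS replicate 3. Plat, the tissue-type activator, had 0.315, 0.761, 0.0952 and 0.923 CPM in vehicle and 0.598, 0.545, 0 and 0.541 CPM after LPS. The groups of Plat overlapped, and the sign of its difference changed when vehicle replicate 4 or LPS replicate 3 was left out. Plg, which encodes plasminogen, had at most 3 counts in any library.

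Genes whose products hold plasminogen on cells were higher in 2 of 3 cases. Anxa2, an annexin of the cell surface, had 184, 141, 195 and 138 CPM in vehicle and 805, 950, 1630 and 855 CPM after LPS (log2 fold change 2.69, standard error 0.25; edgeR quasi-likelihood test, Benjamini-Hochberg adjusted p = 1.45e-05). Plgrkt, a plasminogen receptor, rose from 26.9 ± 6.28 to 91.5 ± 24.5 CPM. The third, S100a10, the partner of annexin A2, overlapped between groups at 38.7, 10.8, 21.0 and 8.70 CPM in vehicle and 28.8, 18.1, 64.8 and 12.7 CPM after LPS. Lrp1, the receptor that takes up urokinase bound to its inhibitors, had 1967, 2596, 1705 and 2425 CPM in vehicle and 569.7, 696, 721 and 599 CPM after LPS. It remained abundant but was lower in every LPS library (log2 fold change −1.75, standard error 0.17; edgeR quasi-likelihood test, Benjamini-Hochberg adjusted p = 1.97e-05).

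Of the protease-activated receptors, only F2r, the main thrombin receptor, was tested. It had 3.78, 1.31, 1.27 and 1.70 CPM in vehicle and 2.75, 0.599, 0.700 and 0.487 CPM after LPS. Replicate 1 was the highest in both groups, and the groups overlapped because of it. The log2 fold change of F2r was −0.84 and was not called (edgeR quasi-likelihood test, Benjamini-Hochberg adjusted p = 0.242). With the replicate number as a block it was −0.999 and called (edgeR quasi-likelihood test, Benjamini-Hochberg adjusted p = 0.0247), as it was without LPS replicate 1, at −1.74 (edgeR quasi-likelihood test, Benjamini-Hochberg adjusted p = 0.0123), and over the other alternatives this p ranged from 0.0536 to 0.699. Of the receptors of thrombospondin, Cd47 rose from 299 ± 55.8 to 639 ± 109 CPM, whereas Cd36 overlapped between groups at 637 ± 242 and 694 ± 332 CPM. Both other transglutaminase genes of the list, Tgm1 and Tgm2, moved opposite to F13a1. Tgm2, which crosslinks proteins of the matrix, rose from 23.3 ± 4.57 to 181 ± 86.4 CPM (log2 fold change 2.96), with 21.8% of its exonic bases overlapped by genes of the opposite strand. Tgm1 rose from 0.757 ± 0.353 to 13.6 ± 6.80 CPM (log2 fold change 4.16), with 5.76% of its exonic bases overlapped by a gene of the opposite strand.

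The gene with the most similar pattern was searched for each tested member among 7787 protein-coding genes whose mean log2 CPM reached 3, by Pearson's r of log2 CPM over the 8 libraries. These r are a description, since the libraries share the split into treatments. An r close to 1 does not mean a change of the same size, so the log2 fold change of each such gene follows its r. Cxcl2 was closest to Serpinb2 (r = 0.998; 7.20), and Lamc1 was closest to Thbs1 (r = 0.999; 1.08). Plau was most like Mdh1 (r = 0.999; −1.78), Plaur most like Pfkl (r = 0.999; 2.69) and Thbd most like Mtss1 (r = 0.998; −2.95). For F13a1 it was Aggf1 (r = 0.993; −0.42), for F10 Pygl (r = 0.985; 0.44) and for F3 Calu (r = 0.979; 0.64). Each changed less than its member, and Pfkl came closest to it in size.

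RefSeq promoters (build GRCm38.p6) were at hand for 6 of the 9 genes, in 8 entries among 32851, and the 250 bases before each start were searched on both strands. Plau, Thbd and Thbs1 had no entry. The sequences of F3, Plaur and Serpinb2 are shown because these 3 genes rose after LPS. Capitals mark matches to the AP-1 site TGANTCA, the GC box GGGCGG (or its reverse complement) and the TATA box TATAAA. The GC boxes of Plaur overlap or adjoin each other. The windows are chr3:121723287-121723536, chr7:24462233-24462482 and chr1:107511173-107511422, all on the plus strand and read 5′ to 3′.
F3: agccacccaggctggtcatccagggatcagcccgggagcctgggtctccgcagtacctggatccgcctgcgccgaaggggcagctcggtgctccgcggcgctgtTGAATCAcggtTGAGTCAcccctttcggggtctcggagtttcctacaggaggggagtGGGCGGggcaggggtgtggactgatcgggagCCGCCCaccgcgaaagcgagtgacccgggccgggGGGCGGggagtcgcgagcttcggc
Plaur: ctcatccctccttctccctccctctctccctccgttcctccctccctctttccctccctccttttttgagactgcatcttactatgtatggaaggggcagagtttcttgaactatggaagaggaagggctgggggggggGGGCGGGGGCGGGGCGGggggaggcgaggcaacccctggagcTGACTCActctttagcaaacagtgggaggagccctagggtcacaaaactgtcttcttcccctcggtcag
Serpinb2: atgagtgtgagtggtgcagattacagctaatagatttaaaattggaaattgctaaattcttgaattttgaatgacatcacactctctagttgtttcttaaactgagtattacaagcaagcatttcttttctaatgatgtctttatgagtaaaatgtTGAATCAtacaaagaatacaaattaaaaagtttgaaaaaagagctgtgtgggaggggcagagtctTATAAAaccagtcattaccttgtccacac
All 3 hold an AP-1 match, a motif found in 6.75% of all promoters of the table. In F3 it begins 146 and 135 bases before the start, in Plaur 69 bases and in Serpinb2 94 bases before it. F3 and Plaur hold 3 GC boxes each, a motif of 32.7% of promoters, and Serpinb2 holds a TATA box 29 bases before the start, a motif of 12.4%. The second Serpinb2 entry starts farther downstream and holds the same AP-1 and TATA matches. Of the other members, 1 of the F13a1 entries holds TGACG, the shorter form of the CRE (17.8% of promoters), and F7 and F10 hold none of the motifs searched. The NF-kB consensus (3.90% of promoters), the full CRE TGACGTCA (1.55%) and the interferon-sensitive element (2.98%) matched no member window. Only full matches were counted, so a site that differs from its pattern at 1 base is missed. A match is a stretch of letters and was not examined for binding.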

How the data were processed

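RNA of 4 vehicle and 4 LPS libraries was sequenced in single-end reads. The authors filtered the reads, aligned them to GRCm38 with GSNAP, counted unique alignments per Ensembl gene with HTSeqGenie and deposited raw counts. The labels and the methods name different kits and sequencers. The annotation release and use of strand are not given in the sources used here. Symbols, positions and exonic lengths came from GENCODE vM21.

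LPS was compared with vehicle across all genes with the quasi-likelihood test of edgeR 4.0.16 in R 4.3.3 (two-sided, TMM, filterByExpr set to at least 10 counts and 15 in total), with Benjamini-Hochberg adjustment over all tested genes and a threshold of 0.05. The fit was tested on simulated data for LPS against vehicle at a dispersion of 0.05, with 13702 genes tested: 98 of 102 genes changed by a log2 fold change of 2 in either direction were called, 75 of 98 changed by 1, and 5 of 13647 that were not changed. The simulated data had the same dispersion for every gene and far fewer changed genes than were called in the real data. They cannot show how often calls are false in the real data. Tables used pandas 2.3.3 and numpy 2.4.6 and figures matplotlib 3.10.9, under Python 3.11.15. Paralogous reads were checked with 50-base windows of each transcript. Serpinb2 shared 10.4% of its windows with Serpinb10, and Thbs1 shared 1.89% with Gm29233. F10 shared 1.81% of its windows with transcripts of 333 genes, and F13a1 shared 0.404% with those of 4 genes. The other members shared none.

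Named genes are the 9 members, called genes of the list of 51 whose mean log2 CPM reached 1, tested partners of the members, of each of 9 marker lists the most abundant gene and those at the floor, and the most similar gene of each tested member. Some genes of the lists count in the totals and are not reported here. The members and lists were chosen with earlier results of these data known.

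Alternatives were DESeq2 1.42.0 (Wald test), its size factors in edgeR, upper quartile normalization, no filter, a filter of 10 counts per library, a replicate block, an adjusted p under 0.01, an absolute log2 fold change of at least 1, leaving out each library, and a pseudocount of 0.1 CPM for ratios. Library totals in place of TMM were added after seeing the data. The labels number the replicates in both groups. Over 8010 genes whose mean log2 CPM reached 3, same-numbered libraries deviated together from their group means, with r of 0.373, 0.196, 0.171 and 0.108, each above the limit of 0.1 for pairs, while exchanged pairs of replicates 2 and 4 reached 0.146 and 0.137. No library or sequencing batch is given in the labels, so a batch that follows the groups cannot be told apart from LPS.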

Additional observations from a re-analysis of the deposited data

Results flagged for a closer look

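In 9 of 66 groups of 4 libraries (33 tested genes in 2 groups), 1 library stood apart from the other 3 by more than Dixon's critical value at 95% for 4 libraries, which chance does in about 1 of 20 groups. F3 was at 18.9 CPM in LPS replicate 1, against 3.08 to 5.27 CPM in the other LPS libraries. Plaur was at 29.5 CPM in vehicle replicate 1, against 18.1 to 19.4 CPM. F2r was at 2.75 CPM in LPS replicate 1, against 0.487 to 0.700 CPM. Tgm2 was at 30.1 CPM in vehicle replicate 1, against 20.4 to 21.8 CPM, and at 309.6 CPM in LPS replicate 3, against 130 to 153 CPM. F8 was at 2.38 CPM in LPS replicate 3, against 1.08 to 1.09 CPM, and F9 at 4.43 CPM, against 2.72 to 2.92 CPM. Plat had 0 CPM in LPS replicate 3, against 0.541 to 0.598 CPM. Pros1 was at 162 CPM in vehicle replicate 3, against 130 to 132 CPM. For F3, Plaur, Pros1, F8 and Tgm2 the groups did not overlap with these libraries included.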

How the results depend on the processing

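Of the members, 4 were called higher and 3 lower in every alternative run except 2: the replicate block, which added F10 and gave 5 higher, and at least 10 counts in every library, a filter that Serpinb2 does not pass, which gave 3 higher. The log2 fold change of F3 ranged from 1.66 to 2.95, that of Thbs1 from 4.34 to 5.88 and that of Serpinb2 from 10.20 to 11.55. Of the longer list, 6 to 10 genes were called higher and 6 to 10 lower. Among all genes 8877 were called, 9044 with the replicate block, 9739 with DESeq2 and 5222 at an absolute log2 fold change of at least 1. The replicate block added a call for F10 and F2r and changed no other call among the 33 tested genes of the members and the longer list. Of the 48 tested marker genes it added calls for 9: Tmem119, Aldoc, Fgfr3, Pdgfra, Ptprz1, Tnr and Folr2 as lower, Kdr and Ms4a7 as higher. Astrocyte markers were then lower in 5 cases in place of 3, oligodendrocyte lineage markers in 6 in place of 4. Normalization moves the balance of all genes: with library totals, chosen after seeing the data, 1988 genes were higher and 8457 lower of 10445 called, against 4191 and 4686 with TMM. The median log2 fold change of all tested genes was then −0.79, and −0.27 with upper quartile normalization, against −0.11. F9 lost its call with DESeq2 (adjusted p = 0.0602), with its size factors in edgeR (0.0611), without a filter (0.0647) and in 7 of 8 edgeR fits without a library (Benjamini-Hochberg adjusted p from 0.0510 to 0.119), and Vwf gained one with library totals (−1.16, edgeR adjusted p = 0.0124, against 0.0568 to 0.801 in the other alternatives). The sign of a few uncalled log2 fold changes turned. S100a10 was −0.067 and Thbs2 −0.24 with library totals, and Cd36 was −0.59 with them and −0.046 with upper quartile normalization. Without 1 library, Cd36 ranged from −0.14 to 0.35 and Plat from −0.61 to 0.14. The causes were not tested. Depth limits F7, F10, Plat and the vehicle level of Serpinb2, which rest on 40 counts or fewer in each library.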
